A study of Bos taurus with 5 samples.

Results

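The distal end of cattle chromosome 18 holds the leukocyte receptor complex, and its transcripts were compared across blood leukocytes of 5 cattle populations. The members were selected on position: every assembled transcript on chromosome 18 whose locus has its midpoint past 57 Mb, summed over each locus of the authors' assembly. The block was singled out with earlier results of the same libraries known, so counts of loci that differ within it are given as a description. The rule gave 358 of 31898 loci and 844 of 72812 transcripts, with the last locus ending at position 66136803. Of the 358 loci, 178 averaged 1 FPKM or more over the libraries and are described below (FPKM count fragments relative to transcript length and library size). The other 180 were below that level, and 66 of them were listed at 0 in every library. Over the whole series 13871 loci reached the same level.

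White blood cells were sequenced after poly(A) selection, with 1 library for each population. The population 75C carried 75 percent Holstein and 25 percent Iranian native ancestry. 50CSH and 50CSN were 50 percent of each breed, with Holstein sires and native dams for 50CSH and the reverse for 50CSN. The purebred populations are labelled H and N, letters that the labels do not spell out. All 5 share the tissue and the preparation, and the labels leave unsaid if 1 animal or a pool was used per library. Differences between populations therefore have no replicate check. In the comparison of 3 crossbred with 2 purebred libraries, the p-values reflect no more than how these libraries vary. The tables hold no read counts. From the most frequent ratio among low single-transcript loci, 1 fragment was worth 1.07 times as many FPKM in 75C as in H, 0.976 times in 50CSH, 0.868 times in 50CSN and 0.838 times in N.

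The leukocyte receptor complex encodes immunoglobulin-like receptors of white cells. Killer immunoglobulin-like receptors on natural killer and T cells recognise MHC class I molecules and hold back or trigger killing, and leukocyte immunoglobulin-like receptors do so mainly on myeloid and B cells. NCR1 is an activating receptor of natural killer cells, FCAR binds immunoglobulin A, GP6 is the collagen receptor of platelets, LAIR1 is an inhibitory collagen receptor, and OSCAR and TARM1 act on myeloid cells. The genes are arranged in tandem copies that vary between animals in number and sequence. In RefSeq's gene order for cattle (assembly ARS-UCD2.0), kallikrein genes and the Siglec region with SIGLEC10, a sialic acid receptor, come first. After them come NLRP12 and the calcium channel genes CACNG6, CACNG7 and CACNG8. GP6, NCR1, FCAR and the killer receptor genes follow, and then LAIR1, LENG8, RPS9, OSCAR and TARM1. NLRP genes, the imprinted PEG3 domain and zinc finger genes lie toward the end of the chromosome.

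That order is background and names no locus of these data. None of the 323 Ensembl transcript IDs in the block could be paired with a gene symbol, and the build of the files was not given in the sources used here. Loci are therefore named by the first Ensembl ID of the locus and by their position on chromosome 18. Whether the block expresses leukocyte receptors could not be checked against gene names, and leukocyte marker genes could not be looked up for the same reason. Of the 178 loci, 124 held an Ensembl ID (69.7%, against 84.1% of all 13871 loci) and 54 did not. A total of 71 loci shared the deposited span of another locus, in 25 spans, so reads there were divided between overlapping models by the authors' software. The locus just inside the limit, at 57045488 to 57054709, had 3.59 FPKM in 75C, 4.49 in 50CSH, 3.86 in 50CSN, 3.48 in H and 4.87 in N. The nearest locus outside it, at 56860456 to 56865559, had 0.578 FPKM in 75C, 1.71 in 50CSH, 1.79 in 50CSN, 1.74 in H and 6.92 in N.

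Most of the block was expressed at low levels. Its 178 loci had a median of 4.65 FPKM, against 10.8 FPKM over all 13871 loci. A mean under 10 FPKM was found at 129 loci, a mean from 10 to 100 at 36, from 100 to 1000 at 6 and of 1000 or more at 7. Summed over the block, the FPKM came to 6.65% of the library total in 75C, 4.78% in 50CSH, 5.37% in 50CSN, 5.12% in H and 5.95% in N. The 3 highest loci made up most of this, with 5.35% in 75C, 3.51% in 50CSH, 4.10% in 50CSN, 3.90% in H and 4.73% in N. Without them the share was 1.30% in 75C, 1.28% in 50CSH, 1.26% in 50CSN, 1.22% in H and 1.22% in N.

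None of those 3 carries an Ensembl ID. The highest, a locus of 128 nucleotides at 61195122 to 61195249, had 21786 FPKM in 75C, 18929 in 50CSH, 13298 in 50CSN, 12935 in H and 21904 in N. A locus of 106 nucleotides at 61904621 to 61904726 had 10526 FPKM in 75C, 8731 in 50CSH, 1848 in 50CSN, 5201 in H and 9020 in N. Both are shorter than the 130 bp to which the labels' protocol fragments the RNA, and FPKM of so short a model depends strongly on the length the software assigns. The single-transcript locus XLOC_009963, within the span 61508086 to 61564471, had 12800 FPKM in 75C, was listed at 0 in 50CSH, and had 19859 in 50CSN, 10473 in H and 3865 in N. An exact 0 beside such values can be a failed estimate, so no fold against it is given, though the locus stays in the fit and in the 2-fold counts.

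The annotated loci at the top were steadier, and the 3 highest of them that stand alone in their span leaned toward the crossbreds. ENSBTAT00000055278, at 61194647 to 61194942 and next to the short locus named first, had 3068 FPKM in 75C, 2391 in 50CSH and 2327 in 50CSN, against 2066 in H and 1769 in N. ENSBTAT00000008502, at 63610157 to 63617474, had 2522 FPKM in 75C, 2461 in 50CSH and 2681 in 50CSN, against 1797 in H and 1958 in N. ENSBTAT00000021268, at 65983996 to 65989602, had 1682 FPKM in 75C, 1809 in 50CSH and 2091 in 50CSN, against 1311 in H and 1462 in N. At each of the 3 every crossbred library lay above both purebred libraries. The same held for ENSBTAT00000031754, in the span 62485174 to 62653894, with 1299 FPKM in 75C, 1336 in 50CSH and 1504 in 50CSN, against 1125 in H and 1032 in N. None of the 4 passed the test across all loci, with log2 differences from 0.35 to 0.45 and adjusted p from 0.18 to 0.26 (limma with Benjamini-Hochberg adjustment). Quantile normalization left log2 differences of 0.05 for ENSBTAT00000055278, 0.08 for ENSBTAT00000008502, 0.09 for ENSBTAT00000021268 and 0.07 for ENSBTAT00000031754. In mixed leukocytes, here and below, fewer cells of a type and less RNA per cell cannot be told apart.

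The crossbred and purebred libraries were compared on the log2(FPKM + 1) scale, which understates the change of low loci. Of the 178 loci, 1 passed an adjusted p of 0.05, against 0.0288% of all loci. At an unadjusted p of 0.05, 29 loci were lower in the crossbreds (16.3%, against 11.9% of all loci) and 13 were higher (7.30%, against 9.86%). Together these were 42 loci, 23.6% of the block against 21.7% of all loci. The block stood nearer to the rest of chromosome 18, where 24.2% of 586 loci passed that p. Counting instead loci at which all 3 crossbreds lay below both purebreds, with the group means at least 1.5-fold apart, gave 23 loci (12.9%), against 5.39% of all loci and 5.80% of the rest of chromosome 18. In the other direction there were 3 loci (1.69%), against 2.51% of all loci. The imbalance came with the 1.5-fold condition. Without it, 42 loci above 0 in all libraries had every crossbred below both purebreds, and 41 had every crossbred above both. Shares of all loci were not counted without that condition. With the 1.5-fold condition, 13 of the 86 loci that averaged 5 FPKM or more lay lower (15.1%, against 4.41% of all such loci). By that rule 0 lay higher (against 2.35%). The median log2 difference was -0.08 in the block and -0.01 over all loci, and neither is a test.

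**Figure D1:**
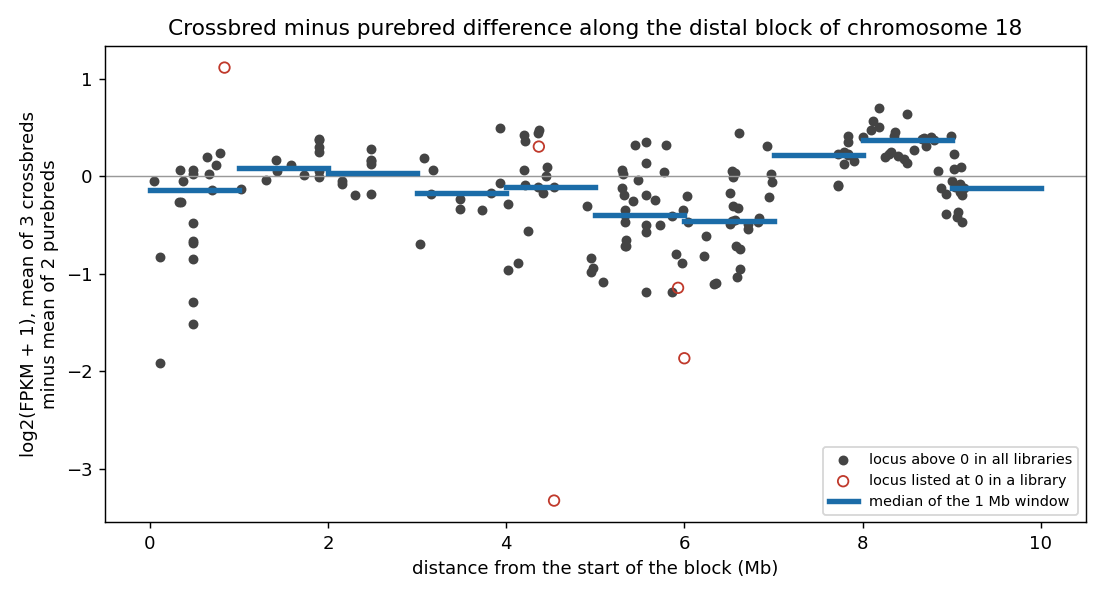
Log2(FPKM + 1) difference between the mean of the 3 crossbred and the mean of the 2 purebred libraries (vertical axis) for 178 loci by distance from the start of the block in Mb (horizontal axis). Bars are the medians of 1 Mb windows and open circles are loci listed at 0 in a library. The windows from 5 to 7 Mb have medians of -0.40 and -0.45, and those from 7 to 9 Mb have medians of 0.22 and 0.37.

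The locus that passed the test is ENSBTAT00000022604, at 57090258 to 57143002, which fell in the crossbreds. It summed to 8.25 FPKM in 75C, 7.18 in 50CSH and 6.38 in 50CSN, against 29.2 in H and 31.0 in N. The 3 crossbred values lay close together and far below both purebred values. The log2 difference was -1.92 (SE 0.12, 3 against 2 libraries; limma, Benjamini-Hochberg adjusted p = 0.032). The call was lost when any 1 library was left out, with an adjusted p of 0.27 without N, 0.13 without H, 0.058 without 75C, 0.094 without 50CSN and 0.23 without 50CSH (limma). Where H or N was left out, the lone purebred library is assumed to vary as the crossbreds do. It was also lost with no filter on low values (adjusted p = 0.068) and with only loci above 0 in all libraries (adjusted p = 0.063), in the same limma fit. Over 12 alternatives the adjusted p ranged from 0.017 to 0.27, and the direction stayed the same.

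The difference at that locus was spread over many of its 17 assembled transcripts, which carry 4 Ensembl IDs. Of them, 9 were lower in all 3 crossbreds than in both purebreds and 0 were higher in all. The largest, TCONS_00022552, had 2.55 FPKM in 75C, 2.73 in 50CSH and 0.569 in 50CSN, against 8.69 in H and 5.26 in N. TCONS_00022556 had 0.428 FPKM in 75C, 0.772 in 50CSH and 0.624 in 50CSN, against 1.83 in H and 3.54 in N. TCONS_00022553 was listed at 0 in all 3 crossbreds and had 0.944 FPKM in H and 2.18 in N. In all, 10 of the 17 were listed at 0 in at least 1 library, so the split between them is less certain than their sum.

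A second group of lower loci lay a short way on, in the span 57394206 to 57566804. It holds 8 loci at or above 1 FPKM, and 5 of them lay lower in every crossbred than in both purebreds with group means at least 1.5-fold apart. The summed level of the span was 136.7 FPKM in 75C, 80.7 in 50CSH and 133.1 in 50CSN, against 222.9 in H and 244.2 in N. ENSBTAT00000026429 had 42.3 FPKM in 75C, 16.6 in 50CSH and 35.9 in 50CSN, against 75.7 in H and 97.3 in N. Its log2 difference was -1.52 (SE 0.40) and did not pass the test (limma, Benjamini-Hochberg adjusted p = 0.14). ENSBTAT00000011656, as XLOC_009923, had 24.7 FPKM in 75C, 9.82 in 50CSH and 41.0 in 50CSN, against 54.6 in H and 54.5 in N. At both loci 50CSH was the lowest library, and the crossbreds differed more among themselves than the purebreds did. The smaller locus XLOC_009927, with no Ensembl ID, had 22.3 FPKM in 75C, 15.5 in 50CSH and 20.1 in 50CSN, against 33.2 in H and 37.1 in N. Since the 8 loci share a span, their values are not independent of each other.

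**Figure D2:**
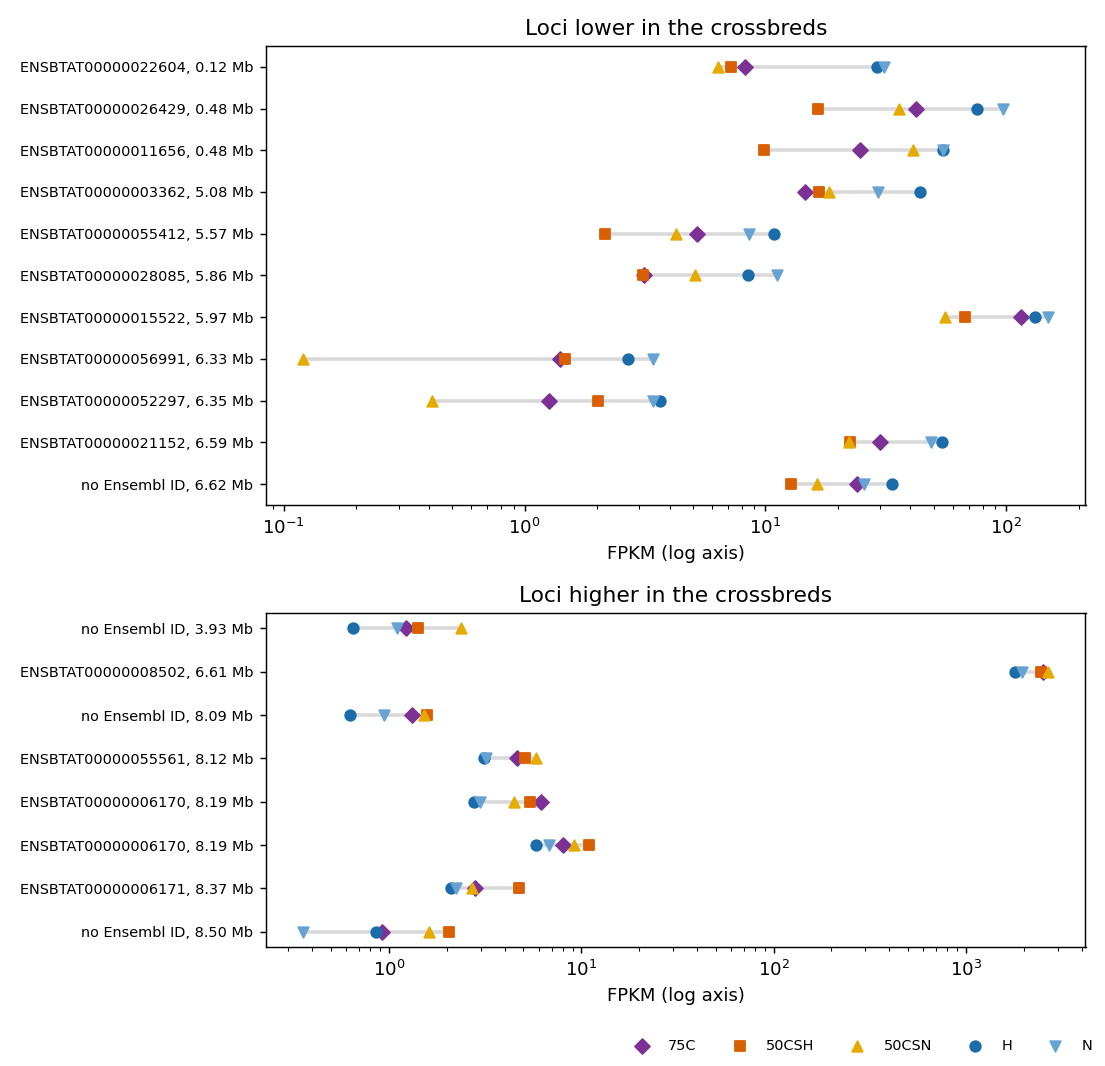
FPKM of single loci in each of the 5 libraries (log axis), labelled by the first Ensembl ID and the distance from the start of the block in Mb. The upper panel has the lowest loci of the crossbreds and those above 0 in all libraries with a transcript the authors called, and the lower panel has the highest loci. In each row every crossbred lies on the same side of both purebreds; grey lines join the lowest and highest library.

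By the same count, further loci lay lower in all crossbreds between 61 and 64 Mb: 5 of 21 in the first of these windows of 1 Mb, 6 of 31 in the second and 6 of 28 in the last, beside the 5.39% of all loci. With the same 1.5-fold condition 0 lay higher in the 3 windows, beside 2.51% of all loci. Without that condition some did, among them ENSBTAT00000055278, ENSBTAT00000031754 and ENSBTAT00000008502. The most abundant was ENSBTAT00000024157, at 61948244 to 61956745, with 104.9 FPKM in 75C, 83.9 in 50CSH and 82.3 in 50CSN, against 203.0 in H and 157.0 in N. Its log2 difference was -0.98 (SE 0.16; limma, Benjamini-Hochberg adjusted p = 0.11). The locus ENSBTAT00000015522, at 62969277 to 62979087, had 115 FPKM in 75C, 67.6 in 50CSH and 55.5 in 50CSN, against 132 in H and 149 in N. Here 75C lay closer to the purebreds than to the 50 percent crosses. ENSBTAT00000021152, at 63586727 to 63600908, had 29.8 FPKM in 75C, 22.5 in 50CSH and 22.2 in 50CSN, against 54.3 in H and 48.8 in N. Its log2 difference of -1.04 (SE 0.15) did not pass either (limma, Benjamini-Hochberg adjusted p = 0.11).

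ENSBTAT00000003362, at 62069995 to 62091975, had 14.6 FPKM in 75C, 16.7 in 50CSH and 18.4 in 50CSN, against 44.0 in H and 29.4 in N. ENSBTAT00000028085, as XLOC_009985 at 62830980 to 62897014, had 3.14 FPKM in 75C, 3.11 in 50CSH and 5.12 in 50CSN, against 8.43 in H and 11.2 in N. ENSBTAT00000055412, in the span 62485174 to 62653894, had 5.21 FPKM in 75C, 2.15 in 50CSH and 4.27 in 50CSN, against 10.9 in H and 8.54 in N. Which purebred was higher differed among the 3, H at the first and the last and N at the second. The last shares its span with ENSBTAT00000031754, which had its crossbred values above both purebreds, so loci of 1 span could differ in direction. XLOC_009379, a second model of ENSBTAT00000028085 in the span of XLOC_009985, had H below both 50 percent crosses. Its values are given below, and the 2 models may share reads. At 63334189 to 63335491, ENSBTAT00000056991 had 1.4 FPKM in 75C, 1.48 in 50CSH and 0.120 in 50CSN, against 2.69 in H and 3.41 in N. Its neighbour ENSBTAT00000052297, at 63349622 to 63353688, had 1.26 FPKM in 75C, 2.02 in 50CSH and 0.411 in 50CSN, against 3.65 in H and 3.41 in N. At both neighbours 50CSN was the lowest library by far, at levels where few reads stand behind a value.

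Lower loci of the same region that were less abundant included ENSBTAT00000020051, in the span 60944910 to 61096700, with 1.17 FPKM in 75C, 1.53 in 50CSH and 1.21 in 50CSN, against 3.63 in H and 3.33 in N. ENSBTAT00000057509, at 61124625 to 61148613, had 2.17 FPKM in 75C, 1.62 in 50CSH and 1.90 in 50CSN, against 4.54 in H and 4.17 in N. At both, the crossbreds and the purebreds each lay close together, and the log2 differences of -0.96 (SE 0.16) and -0.89 (SE 0.15) had an adjusted p of 0.11 (limma, Benjamini-Hochberg). ENSBTAT00000036984, at 62904003 to 62914777 and beside the locus of ENSBTAT00000028085, had 2.44 FPKM in 75C, 3.46 in 50CSH and 3.07 in 50CSN, against 4.90 in H and 7.04 in N. ENSBTAT00000018020, at 61959429 to 61978935 and beside ENSBTAT00000024157, had 0.908 FPKM in 75C, 0.202 in 50CSH and 0.559 in 50CSN, against 2.34 in H and 1.58 in N. At both, every crossbred lay below both purebreds, as at the neighbour named with it, for ENSBTAT00000028085 as XLOC_009985 only.

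The stretch from 63576879 to 63625283 placed opposite patterns side by side. ENSBTAT00000026728 had 6.09 FPKM in 75C, 5.98 in 50CSH and 5.02 in 50CSN, against 9.35 in H and 10.6 in N. Next comes ENSBTAT00000021152, described above, and then ENSBTAT00000008501, with 18 FPKM in 75C, 15.3 in 50CSH and 12.9 in 50CSN, against 19.7 in H and 19.1 in N. The abundant ENSBTAT00000008502 follows with higher values in the crossbreds. After it, a locus with no Ensembl ID at 63619378 to 63623442 had 24.0 FPKM in 75C, 12.7 in 50CSH and 16.3 in 50CSN, against 33.6 in H and 25.7 in N. The last, at 63623522 to 63625283, had 3.97 FPKM in 75C, 1.78 in 50CSH and 4.28 in 50CSN, against 6.99 in H and 7.15 in N. So 1 locus with crossbred values above both purebreds stood between neighbours with all crossbred values below them. After quantile normalization the log2 difference of ENSBTAT00000008502 was 0.08. It was then -1.01 for ENSBTAT00000021152 and -0.71 for the locus at 63619378.

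The authors tested single transcripts. In the authors' deposited table for crossbreds against purebreds, 5 of 442 tested transcripts of the block are marked significant (1.13%), against 0.936% of all transcripts tested. All 5 were lower in the crossbred libraries. They are TCONS_00022777 of ENSBTAT00000055739, with a deposited q-value of 0.00927, and transcripts of ENSBTAT00000003362 (0.0218), ENSBTAT00000028085 (0.00927), ENSBTAT00000021152 (0.00927) and the locus at 63619378 (0.0322) in the authors' deposited table. TCONS_00022777, part of the locus at 62969277, had 91.9 FPKM in 75C, 45.9 in 50CSH and 38.8 in 50CSN, against 106.8 in H and 120.6 in N. These 5 lie from 62069995 to 63623442. The authors' deposited table of pairs marks 9 tests of 3 block transcripts as significant (0.204% of the block's tests, against 0.116% of all tests). TCONS_00022777 is marked for 50CSN against H, 50CSN against N and 50CSH against N.

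Along the block the direction changed by region. In the window from 62 to 63 Mb the median difference was -0.40 over 31 loci, with 24 of them lower in the crossbred mean. From 63 to 64 Mb it was -0.45 over 28 loci, with 23 lower. Past 64 Mb the sign turned, with a median of 0.22 over 10 loci from 64 to 65 Mb and of 0.37 over 25 loci from 65 to 66 Mb, where 22 were higher in the crossbred mean. In the whole block 101 of 178 loci were lower in the crossbred mean and 77 higher. Over all 13871 loci, 7089 were lower and 6782 higher. The 4 medians from 62 to 66 Mb kept their sign under every alternative run for them, but from 62 to 63 Mb the median was -0.25 without 50CSH. At loci with a mean of 5 FPKM or more it was 0.13 from 64 to 65 Mb and 0.19 from 65 to 66 Mb. Elsewhere medians were between -0.17 and 0.09 with all libraries, and they moved more. From 61 to 62 Mb the median was -0.11, but it was -0.41 without 75C, -0.32 without H, -0.22 without N and 0.04 without 50CSN. There it was also -0.31 with a pseudocount of 0.1 and at loci with a mean of 5 FPKM or more, and -0.05 after quantile normalization. From 60 to 61 Mb it was -0.17, with 0.03 without N and -0.05 without 50CSH. From 59 to 60 Mb it was 0.04, with -0.01 without 50CSH, 0.02 without H, 0.08 without 75C and 0.12 without N. From 58 to 59 Mb it was 0.09, with 0.20 without 50CSH, 0.16 without 50CSN and 0.05 without 75C. From 57 to 58 Mb it was -0.14, with -0.26 at loci with a mean of 5 FPKM or more. Past 66 Mb it was -0.12, with -0.20 without H, -0.08 without 50CSH and -0.03 without N. The number of annotated loci within 1 Mb moved with the direction over the genome as a whole. In the fifth of all loci with the most annotated neighbours (30 to 84) the median difference was -0.11, and in the fifth with the fewest (0 to 7) it was 0.04. Only the 50 percent crosses were low in the fifth with the most. Median deviations from the mean of the libraries there were 0.039 in 75C, -0.064 in 50CSH, -0.097 in 50CSN, 0.043 in H and 0.094 in N. The windows from 62 to 64 Mb were dense, with medians of 47 and 41 annotated loci, and that from 65 to 66 Mb, with a median of 31, was also dense but had the opposite sign. The part of gene density in these values was not tested.

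**Figure D3:**
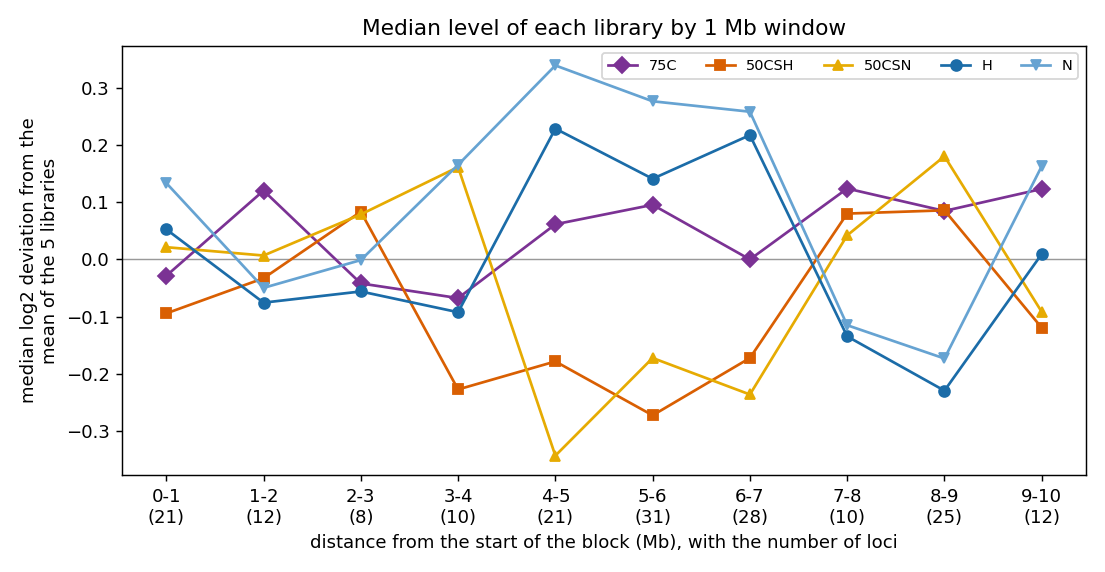
Median deviation of each library from the mean of the 5 libraries (log2, vertical axis) in 1 Mb windows along the block (horizontal axis, with the number of loci in brackets). From 4 to 7 Mb H and N lie above 75C and the 50 percent crosses lie below it, and from 7 to 9 Mb all 3 crossbreds lie above H and N.

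The libraries took different places in these windows. From 62 to 63 Mb the median deviation from the mean of all libraries was 0.10 in 75C, -0.27 in 50CSH, -0.17 in 50CSN, 0.14 in H and 0.28 in N. From 65 to 66 Mb it was 0.08 in 75C, 0.09 in 50CSH, 0.18 in 50CSN, -0.23 in H and -0.17 in N. In the first window only the 50 percent crosses lay below the mean, and in the second all 3 crossbreds lay above it.

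The loci that were higher in the crossbreds differed by smaller amounts. ENSBTAT00000006170, as XLOC_009422 at 65174598 to 65196985, had 6.18 FPKM in 75C, 5.38 in 50CSH and 4.45 in 50CSN, against 2.77 in H and 2.99 in N. Its log2 difference was 0.70 (SE 0.16) and did not pass the test (limma, Benjamini-Hochberg adjusted p = 0.13). A second model in the same span, XLOC_010021, had 8.08 FPKM in 75C, 10.9 in 50CSH and 9.18 in 50CSN, against 5.80 in H and 6.81 in N. Both models leaned the same way, but they may share reads. ENSBTAT00000055561, at 65114877 to 65124216, had 4.65 FPKM in 75C, 5.10 in 50CSH and 5.83 in 50CSN, against 3.11 in H and 3.21 in N. ENSBTAT00000006171, at 65364784 to 65368810, had 2.81 FPKM in 75C, 4.72 in 50CSH and 2.70 in 50CSN, against 2.10 in H and 2.23 in N. The abundant ENSBTAT00000013247, at 65763863 to 65764283, had 315.9 FPKM in 75C, 320.3 in 50CSH and 333.5 in 50CSN, against 246.4 in H and 242.8 in N. Its 3 crossbred values and its 2 purebred values each lay close together, with a log2 difference of 0.40 (SE 0.08; limma, Benjamini-Hochberg adjusted p = 0.12).

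Low loci with no Ensembl ID also lay higher. At 65085641 to 65094320 there were 1.31 FPKM in 75C, 1.58 in 50CSH and 1.53 in 50CSN, against 0.629 in H and 0.937 in N. XLOC_010225, in the span 65481726 to 65518171, had 0.916 FPKM in 75C, 2.04 in 50CSH and 1.62 in 50CSN, against 0.854 in H and 0.358 in N. Before the region of lower loci, XLOC_010190 at 60921421 to 60937232 had 1.22 FPKM in 75C, 1.42 in 50CSH and 2.36 in 50CSN, against 0.653 in H and 1.10 in N. At all 3 every crossbred lay above both purebreds, in places by little.

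Between the purebreds, 7 of 178 loci were at least 2-fold apart (3.93%, against 3.32% of all loci), with 2 higher in H (1.12%, against 1.46%) and 5 lower (2.81%, against 1.86%). That share is near the background. Among loci above 0 in all libraries, the lowest values in H against N were at a pair of neighbours without an Ensembl ID. At 61429332 to 61456325 there were 0.579 FPKM in H and 4.02 in N, beside 1.95 in 75C, 2.29 in 50CSH and 1.34 in 50CSN. The next locus, at 61457547 to 61461398, had 0.446 FPKM in H and 3.46 in N, beside 1.96 in 75C, 1.86 in 50CSH and 1.36 in 50CSN. At both, all 3 crossbreds lay between the purebreds. XLOC_010162, in the span 57090258 to 57143002, had 0.655 FPKM in H and 3.29 in N, with 0.175 in 75C, 0.473 in 50CSH and 0.974 in 50CSN. At 60030702 to 60042696 there were 1.5 FPKM in H and 3.53 in N, with 0.640 in 75C, 1.11 in 50CSH and 1.61 in 50CSN. XLOC_009379, at 62830980 to 62897014, had 1.24 FPKM in H and 3.46 in N, with 0.780 in 75C, 1.65 in 50CSH and 1.85 in 50CSN. In these 3 loci N stood above every other library.

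In the other direction, the locus at 61211648 to 61213790 had 2.32 FPKM in H and 0.867 in N, with 8.87 in 75C, 1.57 in 50CSH and 0.299 in 50CSN. The locus at 61359901 to 61362796 had 1.68 FPKM in H and 0.238 in N, with 3.04 in 75C, 1.61 in 50CSH and 0.468 in 50CSN. Both had 75C highest and N and 50CSN lowest. ENSBTAT00000021266, in the span 61508086 to 61564471, had 3.04 FPKM in H and 1.18 in N, with 2.38 in 75C, 1.16 in 50CSH and 1.85 in 50CSN. XLOC_010200, in the span 62322736 to 62333017, had 3.09 FPKM in H and 1.30 in N, with 0.829 in 75C, 0.556 in 50CSH and 1.31 in 50CSN. XLOC_010205, in the span 63498824 to 63520665, had 4.16 FPKM in H and 1.97 in N, with 5.81 in 75C, 0.868 in 50CSH and 2.30 in 50CSN. All of these values are low, and no pair of single libraries was tested.

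The reciprocal crosses carry the same share of each breed and differ in which breed was the sire. Between them, 11 loci were at least 2-fold apart (6.18%, against 2.82% of all loci), with 8 higher in 50CSH (4.49%, against 1.25%) and 3 lower (1.69%, against 1.56%). With loci above 0 in all libraries the count was 9 (5.20%, against 2.03% of all such loci). XLOC_009963, listed at 0 in 50CSH, is 1 of the 3 lower among the 11. ENSBTAT00000053352, at 62791034 to 62799677, had 8.30 FPKM in 50CSH and 2.31 in 50CSN, beside 3.01 in 75C, 2.73 in H and 3.26 in N. 50CSH stood alone there, above all other libraries. The locus at 61363095 to 61364945 had 5.94 FPKM in 50CSH and 1.41 in 50CSN, beside 1.93 in 75C, 2.31 in H and 1.10 in N. At 61353823 to 61354175 there were 3.78 FPKM in 50CSH and 0.554 in 50CSN, beside 1.08 in 75C, 2.01 in H and 1.41 in N. The locus at 62337899 to 62338180 differed in another way, with 9.23 FPKM in 50CSH and 3.60 in 50CSN, beside 9.70 in 75C, 10.6 in H and 13.7 in N, so that 50CSN stood alone below the rest. The short locus at 61904621, described above, was also lowest in 50CSN. XLOC_010173, in the span 58791322 to 59007273, had 6.21 FPKM in 50CSH and 10.0 in 50CSN, beside 6.28 in 75C, 7.58 in H and 7.09 in N, with 50CSN highest.

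Among loci above 0 in all libraries, the 5 lowest in 50CSH against 50CSN were ENSBTAT00000026429 and XLOC_009923 of the span from 57394206, given above, and 3 loci further on. The locus at 63025419 to 63032809 had 1.79 FPKM in 50CSH and 4.37 in 50CSN, beside 4.98 in 75C, 5.36 in H and 3.14 in N. XLOC_010205 had 0.868 FPKM in 50CSH and 2.30 in 50CSN, and the locus at 63623522 had 1.78 in 50CSH and 4.28 in 50CSN. At each of the 5, 50CSH was the lowest of all libraries.

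Each crossbred was also set against each purebred. For 75C, 14 loci were at least 2-fold apart from N (7.87%, against 4.71% of all loci) and 12 from H (6.74%, against 3.52%). For 50CSH, 23 loci were apart from N (12.9%, against 5.72% of all loci) and 27 from H (15.2%, against 5.90%). With loci above 0 in all libraries, 20 were apart from N (11.6%, against 4.83% of all such loci). From H, 24 were apart (13.9%, against 5.17%). For 50CSN, 20 loci were apart from N (11.2%, against 5.86% of all loci) and 18 from H (10.1%, against 5.80%). The 50 percent crosses had most of these loci below the purebreds. In 50CSH, 18 were lower than in N (10.1%, against 4.24% of all loci) and 22 lower than in H (12.4%, against 4.17%). In 50CSN, 19 were lower than in N (10.7%, against 4.04% of all loci) and 16 lower than in H (8.99%, against 3.66%). The comparisons share libraries, so these counts are not independent of each other.

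Read against both purebreds at once, 16 loci were at least 1.5-fold below both in 75C (8.99%, against 3.05% of all loci), 27 in 50CSH (15.2%, against 7.32%) and 33 in 50CSN (18.5%, against 6.70%). Above both were 4 loci in 75C (2.25%, against 2.40% of all loci), 8 in 50CSH (4.49%, against 2.84%) and 4 in 50CSN (2.25%, against 3.53%). So the shares below both purebreds exceeded those of all loci in each crossbred, while the shares above did so in 50CSH alone.

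**Figure D4:**
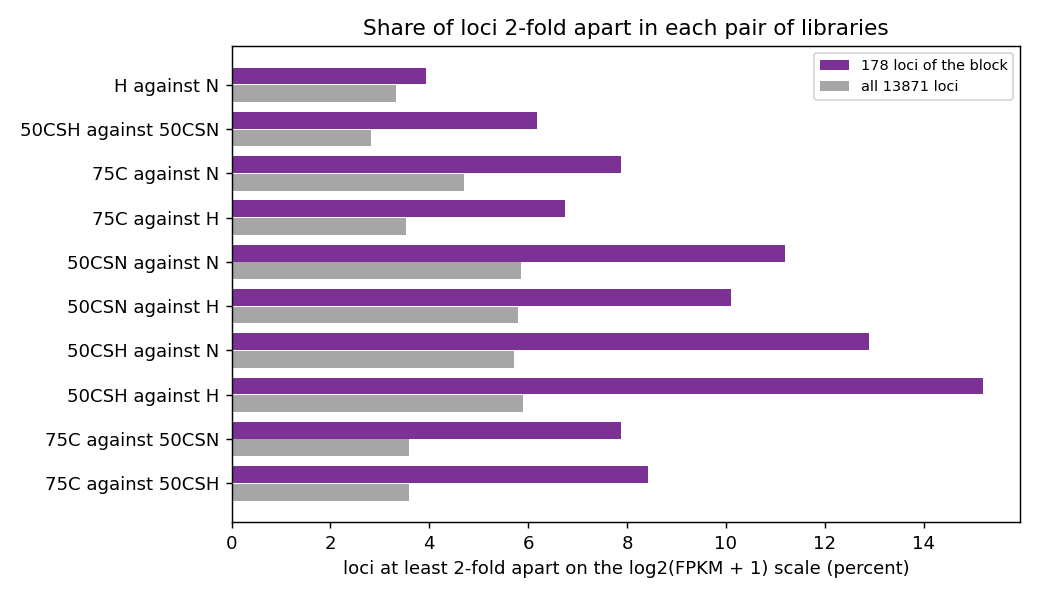
Percent of loci at least 2-fold apart (horizontal axis) in each of the 10 pairs of libraries, for the 178 loci of the block and for all 13871 loci. The block's share runs from 3.93% for H against N to 15.2% for 50CSH against H, and it exceeds that of all loci in every pair.

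75C stood apart from the 50 percent crosses mainly by higher values. Against 50CSH, 15 loci were at least 2-fold apart (8.43%, against 3.60% of all loci), 11 of them higher in 75C (6.18%, against 2.54%). Against 50CSN there were 14 (7.87%, against 3.58%), 13 of them higher in 75C (7.30%, against 2.22%). Some loci from 61 to 62 Mb had their highest value in 75C. At 61214443 to 61215391 there were 4.18 FPKM in 75C, 0.285 in 50CSH and 0.985 in 50CSN, with 1.90 in H and 1.17 in N. The loci at 61211648 and 61359901, given above, had the same highest library. Others nearby did not: those at 61353823, 61363095 and 61365247 were highest in 50CSH, and that at 61195122 was highest in N. From 61 to 62 Mb, 0 of 21 loci kept the 5 libraries within a range of 1.5-fold, against 78 of 178 (43.8%) in the block and 61.9% of all loci. That window had the lowest median level, 2.17 FPKM, and 47.6% of its loci held an Ensembl ID, against 69.7% in the block. Of the block's loci without an ID 27.8% stayed within that range, against 50.8% of those with one. The part of level and annotation was not tested.

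Values listed at 0 occurred at 5 of the 178 loci. One is XLOC_009963, described above. The locus at 62927492 to 62928161, with no Ensembl ID, had 5.43 FPKM in 75C, 5.56 in 50CSH, 0 as listed in 50CSN, 8.11 in H and 5.49 in N. Its transcript is marked significant for 50CSN against each of the other 4 libraries in the authors' deposited table. The short locus at 62998116 to 62998263 was listed at 0 in 50CSH, 50CSN and H and had 13.3 FPKM in 75C and 77.3 in N. The locus at 57835295 to 57840315 was listed at 0 in H, with 2.37 FPKM in 75C, 2.77 in 50CSH, 2.95 in 50CSN and 1.88 in N. At 61365247 to 61365834 the value was 0 as listed in 75C, with 3.18 FPKM in 50CSH, 1.19 in 50CSN, 0.752 in H and 0.631 in N. The zeros fell in every population but N. Below the level of 1 FPKM, ENSBTAT00000019910 at 61471881 to 61486895 is marked significant for 75C against H and 50CSH against H in the authors' deposited table, with 0.797 FPKM in 75C, 0.891 in 50CSH, 0.0898 in 50CSN, 0 as listed in H and 0.295 in N.

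Loci also differed in how their level was divided between transcripts, in shares near those of all loci. At each of 35 loci of at least 10 FPKM with several transcripts, the transcript with the largest change in share was picked. Its crossbred and purebred shares did not overlap at 13 loci (37.1%, against 40.9% of 5721 such loci in the series). At 7 of the 35 the means were also at least 10 percentage points apart, against 15.9% of such loci in the series. At ENSBTAT00000024157, the transcript TCONS_00022700 made up 59.2% of the locus in 75C, 73.2% in 50CSH and 84.2% in 50CSN, against 50.9% in H and 40.5% in N. Its own level was 62.1 FPKM in 75C, 61.4 in 50CSH and 69.3 in 50CSN, against 103.2 in H and 63.6 in N, so N lay among the crossbreds. The other transcripts carried the lower sum. TCONS_00022701 had 40.2 FPKM in 75C, 22.4 in 50CSH and 12.2 in 50CSN, against 77.0 in H and 62.1 in N. TCONS_00022702 had 2.59 FPKM in 75C, 0.0134 in 50CSH and 0.764 in 50CSN, against 22.8 in H and 22.3 in N.

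At ENSBTAT00000005286, at 63036445 to 63039715, 1 of a pair of transcripts differed and the other did not follow it. TCONS_00022785 had 25.1 FPKM in 75C, 18.5 in 50CSH and 43.0 in 50CSN, against 60.1 in H and 60.7 in N. TCONS_00022784 had 54.0 FPKM in 75C, 78.6 in 50CSH and 85.2 in 50CSN, against 77.2 in H and 76.9 in N, with the purebreds inside the crossbred range. At ENSBTAT00000015522 the called transcript TCONS_00022777 made up 79.8% of the locus in 75C, 68.0% in 50CSH and 69.9% in 50CSN, against 80.8% in H and 80.7% in N. There 75C kept nearly the purebred share.

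**Figure D5:**
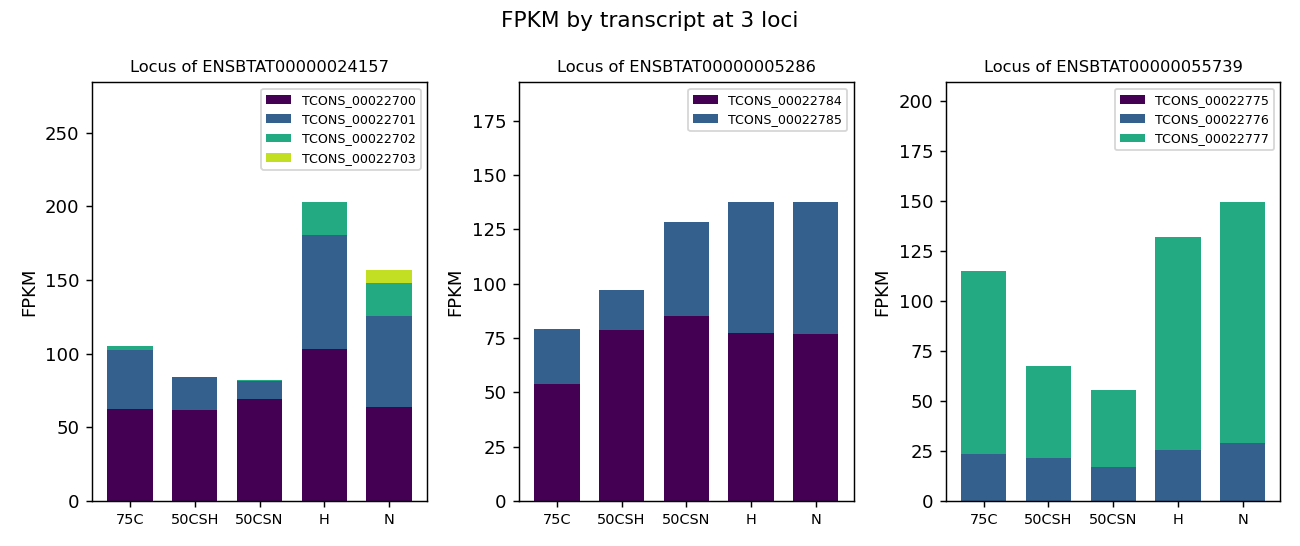
FPKM of each assembled transcript (stacked bars, linear axis from 0) at 3 loci in the libraries 75C, 50CSH, 50CSN, H and N. At the first locus TCONS_00022701 and TCONS_00022702 make up most of the difference between crossbreds and purebreds, at the second TCONS_00022785 does, and at the third TCONS_00022777 does.

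Other loci held their level in all libraries. ENSBTAT00000008424, at 66091923 to 66101481, had 89.0 FPKM in 75C, 82.5 in 50CSH and 78.0 in 50CSN, against 83.6 in H and 92.3 in N. ENSBTAT00000026449, at 58012384, had 62.6 FPKM in 75C, 53.6 in 50CSH and 52.6 in 50CSN, against 63.1 in H and 59.4 in N. ENSBTAT00000027250, at 57333544 to 57346219, had 108.6 FPKM in 75C, 96.3 in 50CSH and 101.9 in 50CSN, against 106.4 in H and 89.7 in N. In all 3 the crossbred and purebred ranges overlapped. Such loci were most frequent from 59 to 60 Mb, where 8 of 8 stayed within 1.5-fold, and from 58 to 59 Mb, where 10 of 12 did. Of all loci 61.9% did so. Of the 8, 5 share a span and 2 share another, and 6 of the 12 share a span, so these counts are not of independent loci.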

How the data were processed

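Peripheral blood leukocytes of 5 cattle populations were profiled by RNA sequencing, 1 library each. The submitters' processing notes name TopHat2 2.0.9 and Cufflinks 2.2.1.0, and a genome build was not given in the sources used here. What the authors deposited are FPKM of each assembled transcript, in tables with Cuffdiff columns per the file headers. FPKM already corrects for transcript length and library size, and it divides reads between overlapping transcripts by a model. The deposited tables also give p-values and q-values for each test, which are printed only as the authors' own. A library's value was the same in all 4 pairs it enters, and each was read once.

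Transcripts were summed per locus, and a locus was kept where it averaged 1 FPKM or more. Values were compared as log2(FPKM + 1). For crossbreds against purebreds, limma 3.58.1 (R 4.3.3) was fitted to all 13871 kept loci using a trend of variance on mean. The p-values were adjusted by Benjamini-Hochberg. On simulated data the code was checked only for the median size of planted differences. Pairs of libraries got counts of loci 2-fold or more apart and no test. The other steps used Python 3.11.15 with pandas 2.3.3, numpy 2.4.6 and, for figures, matplotlib 3.10.9. Positions count from 1. The members, the lists and the rule for named loci were chosen with earlier results of these data known. The rule took the 10 highest loci, the 8 highest and 8 lowest crossbred minus purebred differences without overlap, the 5 highest and 5 lowest between the purebreds and likewise between the reciprocal crosses, and the 3 farthest above and below the others in each crossbred. It also took loci past the adjusted threshold, loci with a transcript called by the authors, and loci of at least 10 FPKM listed at 0 in a library. Other loci were named after their values were seen, among them neighbours, stable loci and those of the transcript comparison. The gene lists could not be used, since no ID was paired with a symbol. The alternatives were robust fitting, a pseudocount of 0.1, an adjusted p of 0.1, a minimum mean of 5 FPKM or no filter, transcripts in place of loci, quantile or median-of-ratios scaling, and leaving out each library.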

Additional observations from a re-analysis of the deposited data

How the results depend on the processing

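No paired analysis was possible because each population has 1 library. Leaving out each library gave 0 loci past an adjusted p of 0.05 in every case (limma), against 1 with all libraries, 25 to 53 at an unadjusted p of 0.05 against 42, and 26 to 46 without overlap against 26. Values per transcript, no filter, and only loci above 0 in all libraries (added after seeing the data) also gave 0 past the adjusted threshold, with 56, 48 and 44 at the unadjusted p. The unadjusted count was 26 with a mean of at least 5 FPKM. For these unadjusted counts, and for the counts with a library left out, the share of all loci was not counted. With 1 library fewer the rule without overlap is easier to meet, so 26 to 46 does not compare directly with 26. Loci without overlap and with group means at least 1.5-fold apart numbered 13 with the minimum of 5 FPKM and 59 per transcript. With the minimum 15.1% lay lower, against 4.41% of all such loci, and 0 higher, against 2.35%. Per transcript 18.7% lay lower, against 8.25% of all transcripts, and 2.52% higher, against 4.49%. For H against N, counts of 2-fold loci were 15 with a pseudocount of 0.1, 11 with no filter, 2 with a mean of at least 5 FPKM, 18 per transcript and 4 above 0 in all libraries. In that order they were 8.43%, 3.77%, 2.33%, 6.47% and 2.31% of the block. The shares over the whole series were 5.80%, 2.91%, 2.43%, 8.90% and 2.39%. With the pseudocount of 0.1, counts were 23 for 50CSH against 50CSN, 24 for 75C against N, 21 for 75C against H, 41 for 50CSH against N, 36 for 50CSN set against N and 32 for 50CSN set against H. With a mean of at least 5 FPKM they were 5, 6, 6, 12, 10 and 9 in the same order, and 14 for 50CSH against H, 4 for 75C against 50CSN and 5 for 75C against 50CSH. Per transcript the counts were 28, 33, 37, 55, 43, 37, 54, 32 and 29, in the order of the counts with that minimum. They were 10.1%, 11.9%, 13.3%, 19.8%, 15.5%, 13.3%, 19.4%, 11.5% and 10.4% of the block's transcripts. Of all transcripts the shares were 9.04%, 10.3%, 9.18%, 14.2%, 14.2%, 14.5%, 14.5%, 11.6% and 11.5%. The other settings reuse the same 5 libraries and largely the same loci, so their shares are not independent of each other. Over the 10 pairs and 7 other settings, the block's share exceeded that of all loci in 64 of 70. The 6 others were H against N with the higher minimum, per transcript and above 0 in all libraries, and per transcript 50CSN against H, 75C against 50CSN and 75C against 50CSH. The higher minimum leaves fewer loci to count, and transcripts outnumber loci; other causes were not tested. Scaling by median of ratios, quantile normalization and robust fitting moved no count by over 1.5 times. FPKM without counts, and 1 library per population, limit every value.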
